A study of Mus musculus with 25 samples.

Results

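Lactobacillus, Lactococcus and Bifidobacterium are followed here through the fecal bacteria of C57BL/6 mice. Their members were the amplicon sequence variants (ASVs, distinct 16S rRNA gene sequences left after error removal) whose genus field, the 6th rank of the deposited taxonomy, carried 1 of these 3 names. The rule found 13 of the 1555 ASVs, in 3 of 110 named genera: 9 in Lactobacillus, 1 in Lactococcus and 3 in Bifidobacterium. Together they held 1411 of 300831 counts, or 0.469%, and their summed share of a library ran from 0.0197% to 1.72% with a median of 0.240%.

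Full-length 16S rRNA genes were sequenced on a PacBio instrument from feces, with 5 libraries in each of 5 groups. The groups carried the labels Sham, the usual word for mock surgery, OVX, the usual short form of ovariectomy, OVX+GEX, OVX+PBS and OVX+FMT, where PBS is a buffered saline and FMT stands for fecal microbiota transplantation. The design text describes mice short of estrogen, with or without a traditional medicine. GEX is not spelled out by the labels, which also name neither the donors of the transplant nor any age, dose or time. The 4 OVX groups thus share the OVX label and differ in what follows it, and the sex of the mice is not stated here because the field reads male in every sample. Feces hold the bacteria that leave the gut, and counts are shares of a library, so more of a genus and less of all others cannot be told apart.

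Lactobacillus and Lactococcus are lactic acid bacteria, which ferment sugars mainly to lactate. Lactobacillus in its present, narrower sense holds species adapted to vertebrate hosts, while Ligilactobacillus, a genus split from it, is a common lactic acid bacterium of the rodent gut. Lactococcus is best known from plants and milk. Bifidobacterium belongs to the Actinobacteria and makes acetate and lactate by a pathway of its own, and other gut bacteria turn these acids into butyrate and propionate.

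Library totals ran from 8498 to 22404 counts with a median of 10123. In the smallest library a count of 0 allows a share of up to 0.0353%, and such floors, like all intervals given, cover counting error only. The table holds 0 values of 1 and 464 of 2, and no source used here says why no value of 1 is listed. The labels say nothing of cages, litters or days, and p-values therefore measure only the spread between these libraries.

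Lactobacillus had the most counts of the 3 genera, 1167 in 24 of 25 libraries, and stood at rank 31 among all genera. It was scarce beside its relative: Ligilactobacillus had 63445 counts and was found in all 25 libraries. Bifidobacterium had 198 counts in 6 libraries (rank 56) and Lactococcus 46 counts in 10 libraries (rank 75). Of the rest of the order Lactobacillales, Enterococcus had 5 counts in 1 library and Marinilactibacillus 19 counts in 3 libraries. Of 15 other lactic acid bacteria on a list of genus names, 2 were in the table, Ligilactobacillus and Enterococcus, and only the first had counts enough for a test.

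The 13 ASVs were very unequal. ASV_42, named Lactobacillus intestinalis, a species of the rodent intestine, had 1102 counts in 22 libraries and made up 94.4% of its genus. ASV_216, with 144 counts, and ASV_441, with 51, both carried the name Bifidobacterium pseudolongum subsp. globosum, an animal gut bacterium, and made up 72.7% and 25.8% of Bifidobacterium. ASV_474, named Lactococcus formosensis, was the whole of Lactococcus with 46 counts. ASV_708, with 20 counts in 4 libraries, was named Lactobacillus iners, a species known from the human vagina. The other 8 ASVs had under 20 counts each and 48 in all, under the names Lactobacillus rogosae, Lactobacillus crispatus, Lactobacillus iners and Bifidobacterium faecale. Of the 13 ASVs, 7 were found in 1 library, or 53.8%, beside 39.1% of all ASVs (608). These names are those of the deposited taxonomy and were not checked against sequences here.

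**Figure D1:**
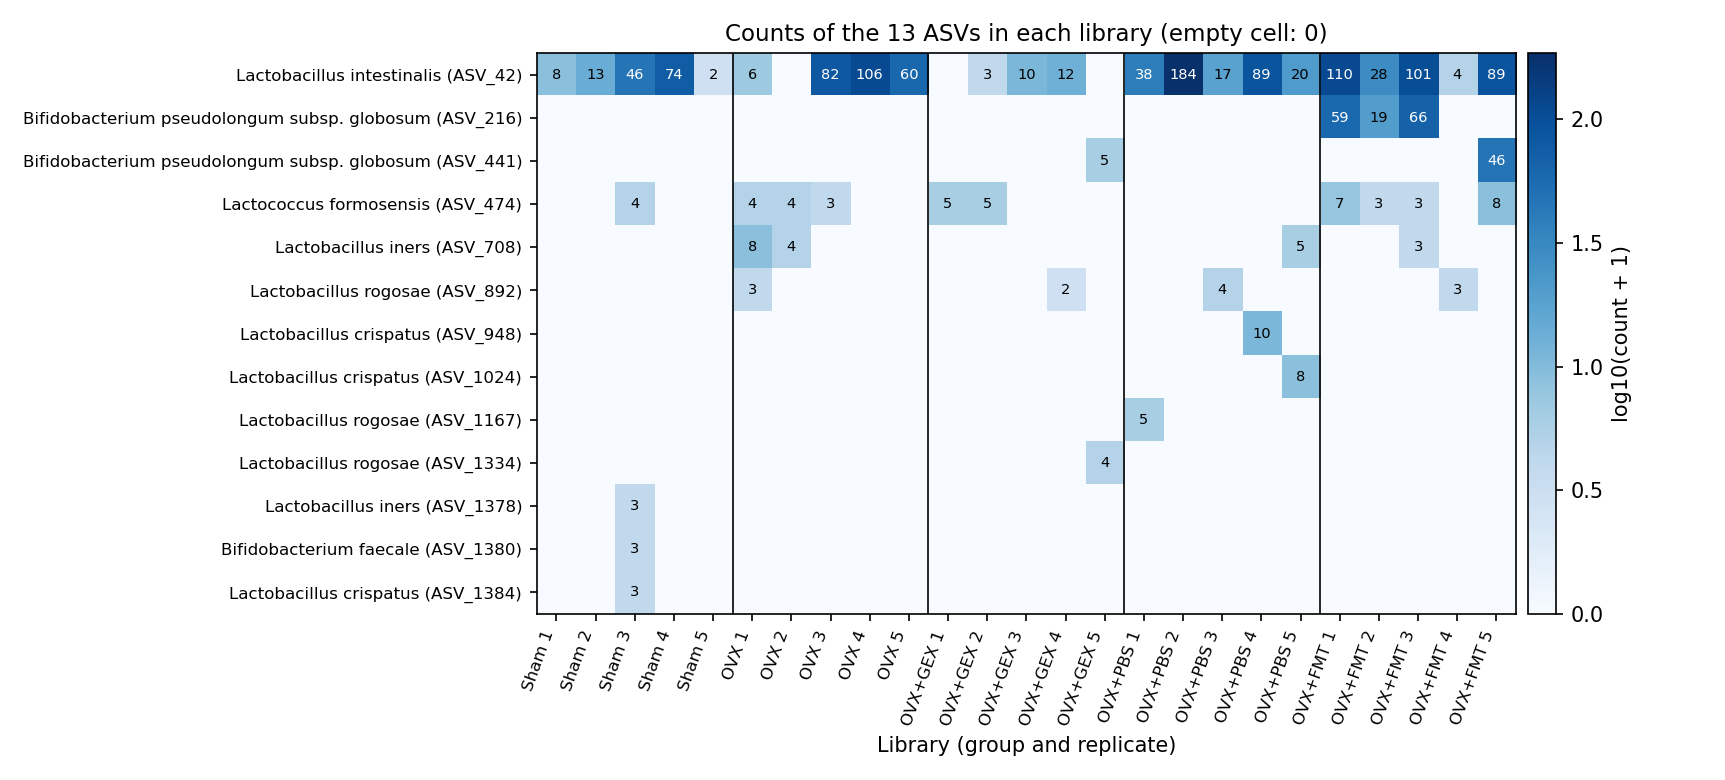
Counts of the 13 ASVs (rows, with their species names) in the 25 libraries (columns, by group and replicate), with the colour showing log10 of the count plus 1 and empty cells standing for 0. Lactobacillus intestinalis fills most of the top row, while ASV_216 is found in 3 OVX+FMT libraries and nowhere else.

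Sham replicate 3 held 5 of the 13 ASVs, the most of any library, and 3 of them were found nowhere else, with 3 counts each. Its total of 17367 was among the higher ones, yet Sham replicate 4, with the highest total, held 1. In OVX replicate 2 all 4 Lactobacillus counts belonged to Lactobacillus iners, and in OVX+GEX replicate 5 all 4 belonged to Lactobacillus rogosae. Lactobacillus intestinalis was thus missing from 3 libraries, these 2 and OVX+GEX replicate 1.

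Lactobacillus was at its lowest mean share in OVX+GEX and at its highest in OVX+PBS. The OVX+GEX libraries held 0%, 0.0301%, 0.113%, 0.165% and 0.0371% of their counts as Lactobacillus in the order of replicates 1 to 5, and the OVX libraries held 0.151%, 0.0361%, 0.892%, 1.05% and 0.622%. In Sham the shares were 0.0822%, 0.133%, 0.299%, 0.330% and 0.0197%. Thus 3 OVX libraries lay above every Sham and every OVX+GEX library, and the other 2 lay among them. In each of these 3 groups replicates 3 and 4 held the 2 highest shares, which was not so in OVX+PBS and OVX+FMT. OVX+PBS libraries had 0.198%, 1.64%, 0.240%, 1.16% and 0.374%, and OVX+FMT libraries 0.491%, 0.266%, 1.03%, 0.0738% and 0.451%. All OVX+PBS libraries lay above all OVX+GEX libraries, and OVX+FMT replicate 4 was the only OVX+FMT library inside the OVX+GEX range. The gap between the nearest libraries of OVX+GEX and OVX+PBS was within counting error. The Wilson interval was 0.0982% to 0.276% in OVX+GEX replicate 4 and 0.147% to 0.266% in OVX+PBS replicate 1. OVX+GEX replicates 1, 2 and 5 held only 0, 3 and 4 Lactobacillus counts. How often other genera had shares with ranges apart in this pair is not given here.

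The group means of Lactobacillus were in the order OVX+PBS, OVX, OVX+FMT, Sham and OVX+GEX, at 0.721% ± 0.643, 0.550% ± 0.445, 0.463% ± 0.359, 0.173% ± 0.136 and 0.0689% ± 0.0677 (SD, n = 5). Exact two-sided permutation tests of 5 libraries against 5 run over 252 splits, and the smallest p they allow is 0.00794. Neighbours in this order did not differ beyond their spread, with exact p of 0.627, 0.738, 0.119 and 0.183 from the top down. The lowest and the highest group, OVX+GEX and OVX+PBS, gave p = 0.00794 by the exact test. After adjustment over the 10 pairs of groups it was 0.0794. OVX+GEX and OVX+FMT gave an exact p of 0.0238 (adjusted 0.119), and OVX and OVX+GEX 0.0635 (adjusted 0.179). Of 30 pairs over the 3 genera, 8 had an unadjusted exact p under 0.05 and 0 passed after adjustment, which a single pair at the smallest p cannot do. The OVX+GEX mean was 0.0449% without replicate 4.

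**Figure D2:**
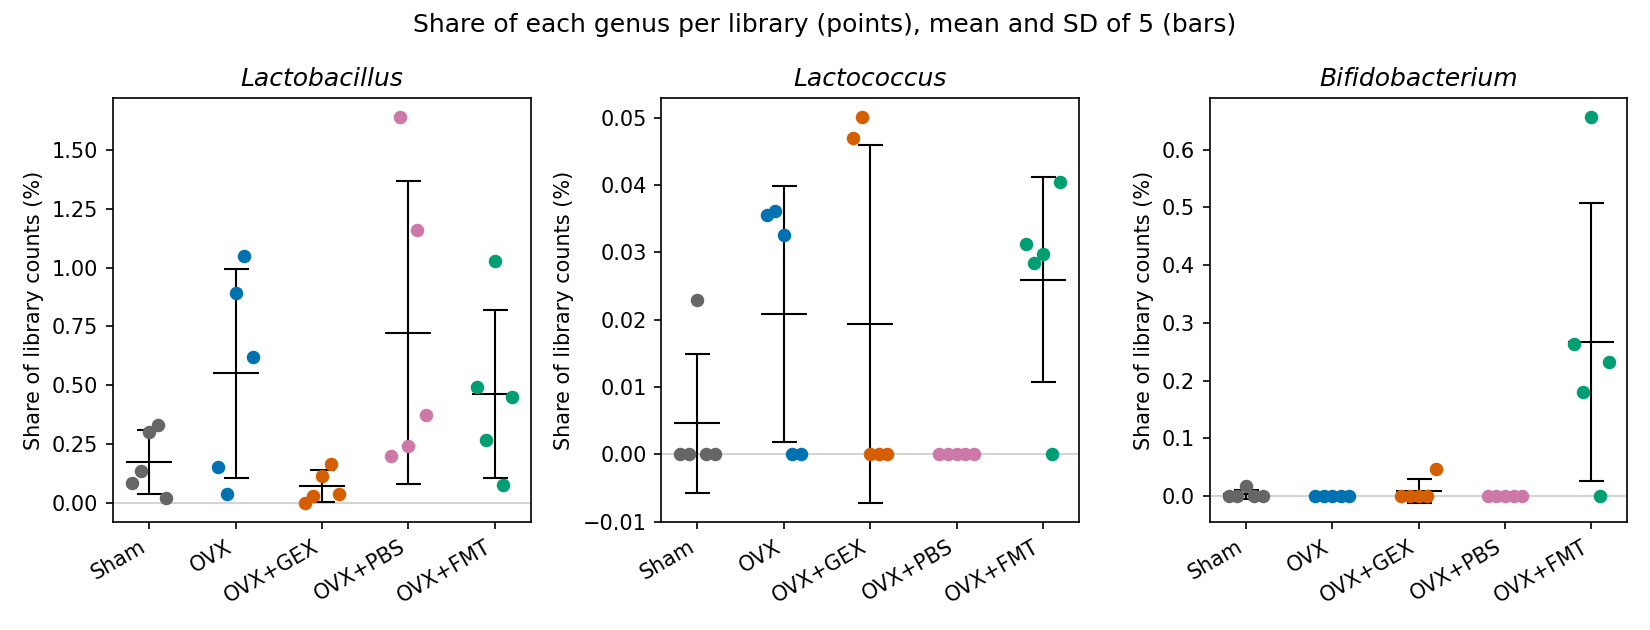
Share of library counts (percent, a separate scale in each panel) for Lactobacillus, Lactococcus and Bifidobacterium in each library (points, in replicate order) of the 5 groups, with the mean and SD of 5 libraries (bars, which reach below 0 where the SD exceeds the mean). OVX+GEX libraries reach 0.165% for Lactobacillus while all OVX+PBS libraries lie at 0.198% or more. How often other genera show such a gap in shares is not given. In the Bifidobacterium panel 4 of 5 OVX+FMT libraries stand apart.

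The comparisons the labels imply were tested by edgeR's quasi-likelihood F test on counts per genus, over the 81 genera that reached 3 counts in 5 or more libraries. All 3 genera passed that filter. Bifidobacterium passed it through 4 OVX+FMT libraries, the group where it was high, and 2 others, so its p-values are given as a description and not as support. By edgeR 0 of 81 genera, or 0%, passed an adjusted p of 0.05 in each of the 5 comparisons. The unadjusted p was under 0.05 for 9 genera in OVX against Sham, 5 in OVX+GEX against OVX, 12 in OVX+FMT against OVX+PBS, 11 in OVX+PBS against OVX and 11 in OVX+FMT against OVX+GEX. DESeq2's Wald test called 1, 0, 0, 1 and 0 genera in the same order, limma on centred log-ratios 1, 1, 1, 0 and 0, and exact permutation tests of shares 0 in each. Bifidobacterium in OVX+FMT against OVX+PBS was the only one of the 3 genera among these calls, by limma. The exact tests can call no genus over 81 unless many reach their smallest p of 0.00794. Comparisons with a group in common share its libraries and are not independent.

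For Lactobacillus in OVX+GEX against OVX, the edgeR log2 fold change was -2.75 (SE 1.01, adjusted p = 0.216), the 4th smallest p of 81. Over the alternatives its adjusted p ran from 0.165 to 0.856. OVX against Sham gave 2.07 on the same scale (SE 0.96, edgeR adjusted p = 0.406), where the median of all tested genera was 0.15. OVX+FMT against OVX+GEX gave 2.78 (SE 1.01, edgeR adjusted p = 0.281), the 2nd smallest p. None of these differences passed the threshold, and the remaining comparisons had smaller estimates: OVX+FMT against OVX+PBS -0.64 (SE 0.93, edgeR adjusted p = 0.708) and OVX+PBS against OVX 0.67 (SE 0.93, edgeR adjusted p = 0.827).

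The ASV of Lactobacillus intestinalis carried most of these values. ASV_42 had 143 counts in Sham, 254 in OVX, 25 in OVX+GEX, 348 in OVX+PBS and 332 in OVX+FMT. It was found in 3 of 5 OVX+GEX libraries, in 4 of 5 OVX libraries and in every library of the other 3 groups. In the edgeR fit of the 379 ASVs that passed the filter, the log2 fold change of ASV_42 was -3.26 in OVX+GEX against OVX (SE 1.51, adjusted p = 0.222) and 3.14 in OVX+FMT against OVX+GEX (SE 1.50, adjusted p = 0.225). In OVX against Sham it was 1.37 (SE 1.40, edgeR adjusted p = 0.903). By edgeR 1 of 379 ASVs, or 0.264%, passed in OVX+FMT against OVX+GEX and 0 in the other 4 comparisons, where 65 to 94 ASVs had an unadjusted p under 0.05. Besides ASV_42, ASV_474 of Lactococcus was the only one of the 13 ASVs with counts in enough libraries for this test.

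Low Lactobacillus in OVX+GEX did not go with low lactic acid bacteria there. Ligilactobacillus held 29.2% ± 13.6 of the counts in OVX+GEX (SD, n = 5; from 13.7% to 45.7%), 24.8% ± 12.6 in OVX, 24.9% ± 9.07 in OVX+FMT, 15.6% ± 8.71 in OVX+PBS and 11.9% ± 6.37 in Sham. The 2 OVX+GEX libraries with the most Ligilactobacillus of all 25, replicates 3 and 4, held Lactobacillus at 0.113% and 0.165%. OVX libraries with nearly as much Ligilactobacillus, replicates 3 and 4 at 35.2% and 37.1%, held Lactobacillus at 0.892% and 1.05%. In edgeR's fit Ligilactobacillus had an estimated log2 fold change of 0.47 in OVX+GEX against OVX (adjusted p = 0.906), opposite in sign to that of Lactobacillus.

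**Figure D3:**
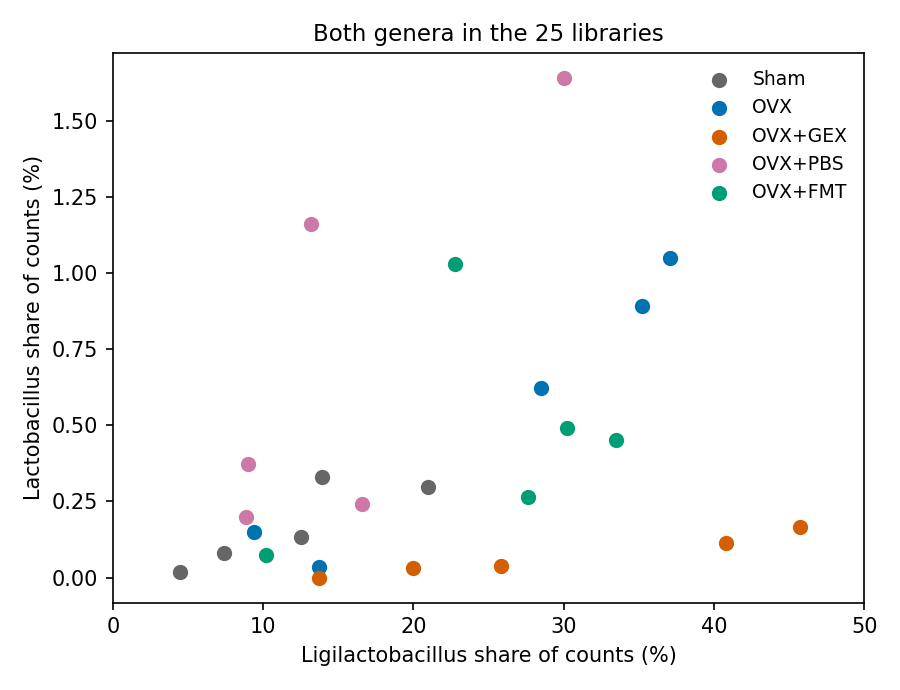
Share of Lactobacillus (vertical axis, percent of counts) against that of Ligilactobacillus (horizontal axis, percent of counts) in the 25 libraries, coloured by group. The 5 OVX+GEX libraries lie along the lower edge, between 13.7% and 45.7% Ligilactobacillus and at no more than 0.165% Lactobacillus.

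Lactobacillus was therefore also taken as a share of the lactic acid bacteria, meaning the counts of Ligilactobacillus, Enterococcus, Lactobacillus and Lactococcus together. These values had been looked at before the tests of this share between groups were chosen. In OVX+GEX it was 0%, 0.150%, 0.275%, 0.359% and 0.144% in replicates 1 to 5, and the 0 of 1459 counts in replicate 1 allows up to 0.206%. In OVX it was 1.58%, 0.262%, 2.47%, 2.74% and 2.14%. Among the OVX libraries, replicate 2 alone lay inside the OVX+GEX range.

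Sham libraries held 1.10%, 1.06%, 1.41%, 2.31% and 0.441%, OVX+PBS libraries 2.18%, 5.16%, 1.42%, 8.04% and 3.98%, and OVX+FMT libraries 1.60%, 0.950%, 4.33%, 0.716% and 1.33%. Every library of these 3 groups lay above every OVX+GEX library. For Sham this rests on replicate 5, whose 2 of 454 counts lie under the 0.661% that a count of 0 allows there. Its Wilson interval of 0.121% to 1.59% reaches below 0.359%, the highest OVX+GEX value. The interval of OVX+FMT replicate 4, from 7 of 977 counts, does so too (0.347% to 1.47%). Counting error alone could thus close the gap to these 2 libraries. The means were 0.186% ± 0.137 in OVX+GEX, 1.26% ± 0.684 in Sham, 1.79% ± 1.46 in OVX+FMT, 1.84% ± 0.982 in OVX and 4.16% ± 2.62 in OVX+PBS (SD, n = 5). Without replicate 3, its highest library, the OVX+FMT mean was 1.15%. Pooled over libraries, 31 of 13772 lactic acid bacteria counts were Lactobacillus in OVX+GEX (0.225%), against 269 of 12594 in OVX (2.14%) and 380 of 9074 in OVX+PBS (4.19%).

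The exact permutation p of OVX+GEX against each of Sham, OVX+PBS and OVX+FMT was 0.00794, or 0.0265 after adjustment over the 10 pairs of groups, in a measure taken up because Lactobacillus had been seen to be low in OVX+GEX. For Sham the share of Lactobacillus in all counts overlapped that of OVX+GEX (exact p = 0.183). Against OVX the exact p was 0.0238, and 0.0595 after adjustment. On the scale of the log2 ratio of Lactobacillus to Ligilactobacillus, with 0.5 added to each count, OVX+GEX lay at -9.28 and OVX at -6.05, with an adjusted exact p of 0.0397. With Lactobacillus intestinalis counts alone the adjusted exact p of that pair was 0.111, while the other 3 pairs kept 0.0265. Leaving out any 1 library, the unadjusted exact p of those 3 pairs was at most 0.0159, 0.0238 and 0.0238. These checks reuse the libraries from which the measure was chosen, and Lactobacillus intestinalis alone holds 94.4% of the genus counts. They therefore cannot undo that choice, and the p-values of this share are given as a description and not as support. The 4 pairs share the 5 OVX+GEX libraries. Among the 6 pairs without OVX+GEX, Sham and OVX+PBS came closest to the threshold (exact p = 0.0317, adjusted 0.0635).

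**Figure D4:**
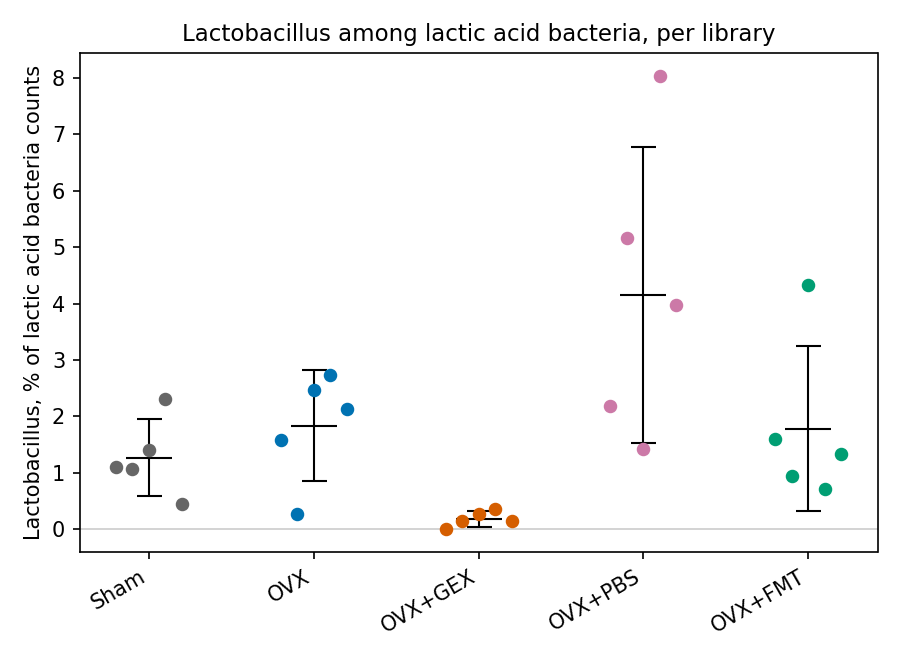
Lactobacillus as a percent of lactic acid bacteria counts in each library (points, in replicate order) of the 5 groups, with the mean and SD of 5 libraries (bars). The OVX+GEX libraries lie at 0.359% or less, below all Sham, OVX+PBS and OVX+FMT libraries. OVX replicate 2 at 0.262% is the only other library in that range. The counting intervals of Sham replicate 5 and OVX+FMT replicate 4 reach below 0.359%.

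Other genera were set against Ligilactobacillus in the same way to give the background. Between OVX+GEX and Sham, 11 of 80 genera, or 13.8%, had log2 ratios whose ranges did not overlap, and the median difference of all 80 was -2.07. In that pair the mean share of Ligilactobacillus itself was 11.9% in Sham and 29.2% in OVX+GEX, and its part in the difference was not tested. Between OVX+GEX and each of OVX, OVX+PBS and OVX+FMT, 1 of 80 genera, or 1.25%, had ranges apart, and in the last 2 pairs that genus was Lactobacillus. The median differences of all 80 in these pairs were -0.43, -0.53 and -0.27. Mean log2 ratios of Lactobacillus were -9.28 in OVX+GEX, -6.38 in Sham, -6.05 in OVX, -4.77 in OVX+PBS and -6.06 in OVX+FMT. By p Lactobacillus ranked 1st against Sham, OVX+PBS and OVX+FMT, ties included, and 2nd against OVX. Adjusted over the 80 genera its exact permutation p was 0.0577 against Sham, 0.635 against OVX, 0.317 against OVX+PBS and 0.635 against OVX+FMT, and 0 of 80 genera, 0%, passed in any of the 4 pairs. Since the exact test allows no p under 0.00794, no genus can pass this adjustment unless many reach that value. The adjusted values therefore decide nothing about Lactobacillus. At an unadjusted exact p under 0.05 there were 32, 4, 6 and 3 genera.

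Bifidobacterium was almost confined to OVX+FMT, with 190 of its 198 counts there. In OVX+FMT it held 0.263%, 0.180%, 0.656%, 0% and 0.233% of the counts in replicates 1 to 5, from 59, 19, 66, 0 and 46 counts. All 5 OVX and all 5 OVX+PBS libraries were at 0, and so were 4 of 5 libraries in both Sham and OVX+GEX. The exceptions were Sham replicate 3, with 3 counts (0.0173%, Wilson 95% interval 0.00587% to 0.0508%), and OVX+GEX replicate 5, with 5 counts (0.0464%, interval 0.0198% to 0.109%). The 4 OVX+FMT libraries with the genus lay above every library of the other groups, while replicate 4 was at 0 with an upper Wilson bound of 0.0405%.

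The mean share in OVX+FMT was 0.266% ± 0.240 (SD, n = 5), and 0.169% without replicate 3, its highest library. With 3 counts per library as the floor, this mean was 9.27-fold the floor of OVX+PBS and 9.05-fold that of OVX. These folds allow for no spread of the OVX+FMT mean and are not lower bounds of the difference. Whether a listed 0 can hide a single read is also not known. Without replicate 3 these folds were 5.88 and 5.75, and without replicate 4, where the mean was 0.333%, they were 11.6 and 11.3. In OVX+FMT against OVX+PBS Bifidobacterium did not pass by edgeR (adjusted p = 0.0812), and in a fit of these 2 groups alone it had too few libraries for the filter. Its adjusted p ran from 0.0120 to 0.482 over the alternatives that kept it. The values under 0.05 were those of edgeR without OVX+FMT replicate 4 (adjusted p = 0.0120), limma on centred log-ratios (0.0169) and edgeR with no filter on low counts (0.0482). In OVX+FMT against OVX+GEX no fold is given, because the OVX+GEX mean of 0.00928% comes from 5 counts in 1 library and lies under that group's mean floor of 0.0310%. There the edgeR adjusted p was 0.281, 0.113 without OVX+FMT replicate 4 and 0.115 without OVX+GEX replicate 5. The lowest adjusted p over the alternatives was 0.0504, by limma on centred log-ratios, while DESeq2's Wald test gave 0.550. The exact permutation p of OVX+FMT against each of the other 4 groups was 0.0476, and 0.119 after adjustment over the 10 pairs.

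In OVX+FMT 2 ASVs made up Bifidobacterium, and they never met in a library. ASV_216 had 59, 19 and 66 counts in OVX+FMT replicates 1, 2 and 3 and 0 in all other libraries. ASV_441 had 46 counts in OVX+FMT replicate 5 and 5 in OVX+GEX replicate 5. Both carry the same subspecies name, and 0 libraries held both. The 3 Sham counts were of ASV_1380, named Bifidobacterium faecale.

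ASVs found in at least 3 libraries of 1 group and nowhere else were counted in the whole table, a search chosen after the values of ASV_216 were seen. There were 7 in Sham, 0 in OVX, 1 in OVX+GEX, 0 in OVX+PBS and 3 in OVX+FMT. ASV_216 was the most abundant of the 3 in OVX+FMT, with 144 of their 208 counts, and of all 11. Bifidobacterium made up 22.2% of 856 Actinobacteria counts in OVX+FMT, and 21.6%, 19.4%, 35.7%, 0% and 29.5% in its libraries 1 to 5. Its part in the other groups was 1.02% of 492 counts in OVX+GEX, 0.875% of 343 in Sham, 0% of 372 in OVX and 0% of 344 in OVX+PBS.

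The rest of the Actinobacteria gave other values than Bifidobacterium. Of 11 gut genera of that phylum on a list, 3 were in the table and 1 could be tested, Adlercreutzia, a genus known for turning plant isoflavones into equol, and edgeR called it in 0 of the 5 comparisons (lowest adjusted p = 0.406). The summed share of the 3 was 0.973% ± 0.380 in OVX+FMT, 0.976% ± 0.515 in OVX+GEX, 0.717% ± 0.318 in OVX, 0.599% ± 0.265 in OVX+PBS and 0.460% ± 0.0613 in Sham (SD, n = 5). The means of OVX+FMT and OVX+GEX thus differed by less than their SDs, beside Bifidobacterium means of 0.266% and 0.00928%. Between OVX+FMT and OVX+PBS, the means of 0.973% and 0.599% differed in the same direction as those of Bifidobacterium.

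Lactococcus was seen only near the limit of detection, with 8 counts in its highest library. Its single ASV, ASV_474, had 7, 3, 3, 0 and 8 counts in OVX+FMT replicates 1 to 5, 4, 4, 3, 0 and 0 in OVX, and 5, 5, 0, 0 and 0 in OVX+GEX. Sham had 4 counts, all in replicate 3, and OVX+PBS had 0 in all 5 libraries. Lactococcus was thus found in 4 OVX+FMT, 3 OVX, 2 OVX+GEX, 1 Sham and 0 OVX+PBS libraries. At the depth of the smallest library the expected numbers were 3.94, 2.99, 2.00, 0.932 and 0. In this reckoning libraries at 0 stay at 0 and any count is taken as found. Being close to the numbers seen therefore does not test the effect of depth.

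The mean share of Lactococcus was 0.0260% ± 0.0153 in OVX+FMT, 0.0209% ± 0.0191 in OVX, 0.0194% ± 0.0266 in OVX+GEX, 0.00461% ± 0.0103 in Sham and 0 in OVX+PBS (SD, n = 5). The first 3 means differed by less than their SDs, and all lay under the mean floor of 0.0287% in OVX+PBS, so that no fold against that group is given. The OVX+GEX mean was 0.0118% without replicate 2. By edgeR the adjusted p was 0.289 in OVX+FMT against OVX+PBS, the 2nd smallest p of 81, and 0.232 in OVX+PBS against OVX. In OVX against Sham it was 0.789 and in OVX+GEX against OVX 1.00 by edgeR, with no fold given because both means of each pair lie under their group's mean floor.

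**Figure D5:**
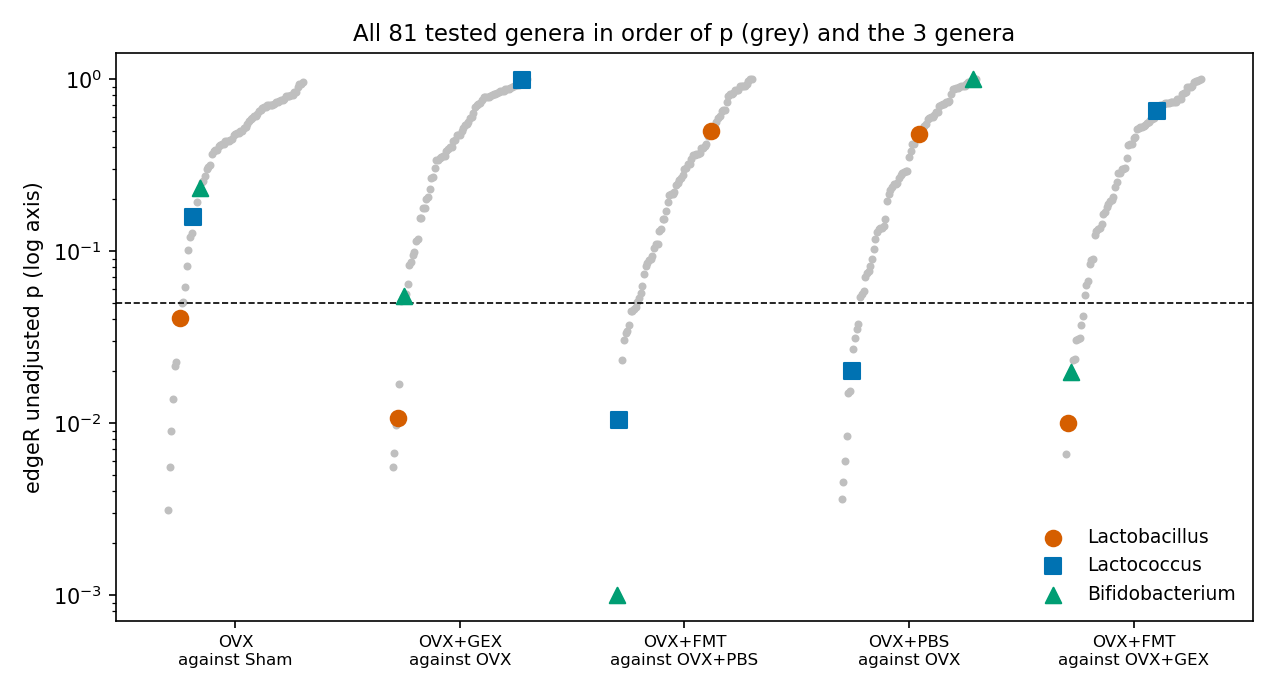
Unadjusted edgeR p (log axis) of the 81 tested genera in each of the 5 comparisons, in order of p from left to right, with grey points for other genera and coloured symbols for Lactobacillus, Lactococcus and Bifidobacterium. The dashed line marks 0.05, and the lowest symbol is Bifidobacterium in OVX+FMT against OVX+PBS at 0.00100, a genus that passed the filter through OVX+FMT.

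The genera whose shares ran most like those of the 3 were found by Spearman correlation over the 25 libraries, which share the constraint that shares sum to 100%. For Lactobacillus they were Ligilactobacillus (rho 0.43), Coprococcus (0.40) and Paludicola (0.33). For Bifidobacterium they were Hydrogenispora (0.63), Turicibacter (0.54) and Coprococcus (0.42), and most of its values are 0. For Lactococcus they were Harryflintia (0.48), Bifidobacterium (0.36) and Caldicoprobacter (0.36). Lactococcus and Bifidobacterium were found together in 5 libraries, OVX+FMT replicates 1, 2, 3 and 5 and Sham replicate 3. Lactococcus was found without Bifidobacterium in 5 libraries, 3 of OVX and 2 of OVX+GEX, Bifidobacterium without Lactococcus in 1, OVX+GEX replicate 5, and neither in 14.

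Bacteria known to use lactate or acetate and form butyrate or propionate were taken from a list of 12 genera, of which 8 were in the table and 7 could be tested. By edgeR 0 of the 7 passed in each comparison. Their median log2 fold change was 0.27 in OVX against Sham, -0.61 in OVX+GEX against OVX, 0.03 in OVX+FMT against OVX+PBS, -0.27 in OVX+PBS against OVX and 0.28 in OVX+FMT against OVX+GEX, beside medians of 0.15, 0.13, 0.62, -0.47 and 0.17 over all tested genera. Their summed share was 14.8% ± 6.70 in Sham, 8.92% ± 5.75 in OVX, 7.98% ± 2.92 in OVX+GEX, 6.22% ± 2.66 in OVX+PBS and 6.32% ± 7.43 in OVX+FMT (SD, n = 5). In every group these genera together outweighed the 3 genera followed here, whose summed share reached 1.72% in its highest library. None of the 10 genera known as reagent contaminants on a further list was in the table, and no chloroplast or mitochondrial names were found.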

How the data were processed

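Fecal DNA of 25 mouse samples, extracted with a commercial kit per the labels' protocols, was read as full-length 16S amplicons. The authors deposited 1 table of whole-number counts per ASV with 7 taxonomy ranks, per the file headers. The submitters' processing notes name Subread without version or role. How reads were denoised, which primers and taxonomy database served and what was filtered: not given in the sources used here. Columns were matched to samples by name, and 5 columns spelled OVX+GES were taken as OVX+GEX, whose titles are otherwise identical. The smallest Bray-Curtis distance was 0.300 between libraries of 1 group and 0.266 between libraries of different groups, so no pair held identical values.

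Genus sums of the counts were tested with edgeR 4.0.16 (quasi-likelihood F test, TMM, R 4.3.3) in 1 fit of all 25 libraries, with Benjamini-Hochberg adjustment over all genera or ASVs tested. Genera and ASVs had to reach 3 counts in 5 or more libraries. Alternatives were TMMwsp, DESeq2 size factors and plain totals in edgeR, DESeq2 1.42.0, limma 3.58.1 on centred log-ratios (0.5 added), exact permutation tests (SciPy 1.17.1), other filters, a replicate block, fits of only the groups compared and of all but 1 library. The scripts were tested on simulated data. Shares are percent of the library total and floors are 3 counts. Tests of Lactobacillus among lactic acid bacteria were added after seeing the data. The 3 genera and the lists (other lactic acid bacteria, other Actinobacteria, lactate and acetate users, reagent contaminants, sequences other than gut bacteria) were chosen with earlier results of these data known. Named were the 3 genera, their ASVs of at least 20 counts, list genera past the threshold or more abundant than a member, and the 3 most correlated genera of each; other ASVs were named after their values were seen. Reads with no genus name were 0.00432% of the counts. Replicate numbers in the labels were not used as pairs outside the replicate block. Correlations of deviations between same-numbered libraries ran from -0.30 to 0.35, with a mean of 0.04 against -0.01 for different numbers. These values do not settle whether same-numbered libraries were linked.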

Additional observations from a re-analysis of the deposited data

Results flagged for a closer look

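In 4 of 17 groups of values, 1 library was set off from the other 4 by a gap that fills most of the group's range, which chance gives in about 1 in 20 groups of measured values. In 3 of the 4 the other libraries are all at 0, so that any count sets a library off and that rate does not apply. Lactococcus was at 0.0230% in Sham replicate 3, from 4 counts, and at 0 in the other Sham libraries. The same library was the only Sham library with Bifidobacterium, at 0.0173% from 3 counts, and both values are under the 0.0308% that a count of 0 allows in Sham replicate 1. OVX+GEX replicate 5 held Bifidobacterium at 0.0464%, from 5 counts of ASV_441, while the other OVX+GEX libraries were at 0. In OVX+FMT replicate 3, Lactobacillus was 4.33% of the lactic acid bacteria counts, and between 0.716% and 1.60% in the other OVX+FMT libraries. That library also had the highest share of Bifidobacterium, 0.656%.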

How the results depend on the processing

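Of the recomputed counts of calls, 97 stayed within 1.5 times the value reported and 13 did not. DESeq2's Wald test called 1 genus in OVX against Sham (Shigella) and 1 in OVX+PBS against OVX (Gluceribacter), where edgeR called 0. Limma on centred log-ratios called 1 genus in OVX against Sham, 1 in OVX+GEX against OVX (Haploplasma in both) and 1 in OVX+FMT against OVX+PBS (Bifidobacterium). With no filter edgeR called 1 genus in OVX+GEX against OVX (Shigella) and 1 in OVX+FMT against OVX+PBS (Bifidobacterium). Leaving out 1 library, the count of genera ran from 0 to 2 in OVX+FMT against OVX+PBS and from 0 to 3 in OVX+FMT against OVX+GEX, both highest without OVX+FMT replicate 4; the first 2 included Bifidobacterium and the 3 none of the genera followed here. With ASVs filtered at 3 libraries, edgeR called 1 ASV in OVX against Sham, 2 in OVX+GEX against OVX, 7 in OVX+PBS against OVX and 6 in OVX+FMT against OVX+GEX, none of them among the 13. The cause of these changes was not tested. The edgeR fit with the replicate block called 0 genera in each of the 5 comparisons. Its adjusted p for Bifidobacterium in OVX+FMT against OVX+PBS was 0.113. For 9 of 25 libraries, the mean correlation of deviations with libraries of other groups was highest for their own replicate number.

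The fitted log2 difference of Lactococcus in OVX+GEX against OVX, both under the floor and with no fold given, was -0.04, but 0.02 with TMMwsp and 0.01 with only the groups compared, and ran from -0.99 to 0.44 when 1 library was left out. No other log2 fold change of the 3 genera changed sign. Plain totals moved the median log2 fold change of all genera from 0.15 to -0.22 in OVX against Sham, from 0.13 to -0.03 in OVX+GEX against OVX and from -0.47 to -0.65 in OVX+PBS against OVX. Without Ligilactobacillus and Duncaniella in the denominator, mean Lactobacillus shares were 1.63% in OVX+PBS, 1.19% in OVX, 1.03% in OVX+FMT, 0.238% in Sham and 0.145% in OVX+GEX, in the same order as before. Some fits of only the groups compared left a genus out because the filter removed it. Lactococcus had at most 8 counts in a library and Bifidobacterium at most 5 outside OVX+FMT. In the comparisons tested by edgeR, no difference among these low values passed the threshold after adjustment. Whether depth had a part in that was not tested.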
